A study of Mus musculus with 2 samples.

Results

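The endocrine, gut and liver miRNAs Mir375, Mir122, Mir192, Mir194-1, Mir194-2 and Mir215 were followed in mouse facial tissue. They were chosen by gene symbol, and their rows were taken by Ensembl gene identifier, which found all 6 members among the 1973 miRNA genes counted. Small RNA of the embryonic facial prominence, the tissue that builds the face and jaws, was sequenced at embryonic day 15.5 in healthy embryos of strain B6NCrl, with both sexes pooled. Replicate 1 was a pool of 78 embryos and replicate 2 a pool of 62 embryos, and no other genotype, treatment or age was present. The replicates were the 1 pair that could be set side by side, so each difference described here lies between 2 pools of the same tissue.

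A miRNA is a short RNA cut from an arm of a hairpin transcript, and its seed, bases 2 to 8 from the 5′ end, pairs with target messages. Mir375 is best known from pancreatic islets, where it acts in beta cell growth and insulin secretion, and it is also made in other neuroendocrine and secretory epithelia. Mir122 is the dominant miRNA of hepatocytes and is known for its part in lipid metabolism. Mir192, Mir194 and Mir215 are abundant in intestinal epithelium, liver and kidney, where they are targets of the HNF transcription factors, and they lie in neighbouring pairs.

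The mature sequences show which members can be told apart by their reads. They came from RefSeq on GRCm38.p6, where 5 members had entries that were used, and Mir122 and the 3p arm of Mir375 are named only. Capitals mark the seed. The first pair belongs to 1 seed family, and the remaining lines show the arms of the duplicated Mir194 and the 5p arm of Mir375.
miR-192-5p: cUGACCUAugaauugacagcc
miR-215-5p: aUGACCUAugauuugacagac
miR-194-5p: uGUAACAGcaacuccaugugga
miR-194-1-3p: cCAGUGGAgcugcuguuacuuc
miR-194-2-3p: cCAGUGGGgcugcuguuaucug
miR-375-5p: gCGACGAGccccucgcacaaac

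miR-192-5p and miR-215-5p shared the seed UGACCUA and were identical at 18 of 21 positions. Counted from the 5′ end of miR-192-5p, they differed by C1A, A12U and C20A, and their hairpins shared no stretch longer than 10 bases, so reads of either could be placed. In the RefSeq table no other mature miRNA carried this seed. miR-194-5p was the same in both of its genes and was found in 2 counted hairpins, while the 3p arms were identical at 18 of 22 positions and differed by A8G, C19U, U20C and C22G from miR-194-1-3p. The A8G change lies in the seed, so the 3p arms had different seeds.

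The hairpins of the duplicated gene are shown because their shared stretch bears on how they were counted. Capitals mark the longest stretch that they have in common.
Mir194-1: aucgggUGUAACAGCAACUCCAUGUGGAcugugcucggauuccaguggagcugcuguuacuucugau
Mir194-2: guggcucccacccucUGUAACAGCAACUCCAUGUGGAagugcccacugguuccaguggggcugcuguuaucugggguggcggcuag

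This stretch was 22 bases long and was exactly miR-194-5p. A read of that arm with no base beyond it fits both genes, and the deposited counts set aside reads that mapped to several places. The counts of Mir194-1 and Mir194-2 therefore hold reads that reached past the stretch or came from elsewhere on the hairpin, and their values are uncertain as levels of the miRNA. No other member shared 20 bases with another counted hairpin.

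The libraries held 2978463 and 6408008 reads on miRNA genes in replicates 1 and 2. These were 51.0% and 45.5% of all reads, and a further 30.6% and 29.7% mapped to several places. Levels are CPM, reads per 1000000 reads on miRNA genes, scaled by TMM, a factor that removes differences in composition, and were not divided by length since a read covers a whole mature miRNA. A gene was called detected with at least 10 reads in each library, which 333 genes reached, and at the floor with at most 3 reads in each, which is 1.00 CPM in replicate 1 and 0.470 CPM in replicate 2. Of the tissue's own lists, 5 of 5 facial mesenchyme and cartilage genes were detected and summed to 31074 ± 1836 CPM, and 7 of 7 epithelial genes to 140246 ± 16339 CPM (SD, n = 2).

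The members together were a small share of the reads counted on miRNA genes, and nearly all of it was Mir375. Their summed level was 1917 CPM in the first pool and 2837 CPM in the other, or 2377 ± 650 CPM (SD, n = 2). This was 0.193% and 0.282% of the reads on miRNA genes. Mir375 made up 90.9% of the sum in replicate 1 and 92.5% in replicate 2. Reads that mapped to several places, among them those that fit both Mir194 genes, are in none of these values. In whole tissue, few cells with much of a miRNA and many cells with little of it cannot be told apart. Of the 6 members 5 were detected, none was at the floor, and Mir194-1 fell between, with 8 and 18 reads.

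Mir375, the islet and secretory cell miRNA, had 5215 reads in replicate 1 and 16738 in replicate 2. Its level was 1742 CPM and 2625 CPM, a mean of 2184 ± 624 CPM (SD, n = 2), and it ranked 74 among all counted genes. Its share of counts was 0.175% (95% Clopper-Pearson interval 0.170 to 0.180) in replicate 1 and 0.261% (0.257 to 0.265) in replicate 2, and these intervals do not overlap. Intervals cover counting error only, since the labels name no molecular identifiers and PCR copies are not independent molecules. The gene lies outside other annotated genes at chromosome 1, 74900658 to 74900721 on the minus strand, 1350 bases from Cfap65 and 7515 bases from the lens crystallin gene Cryba2. The 3p arm is known as its main product, and the deposited counts are given per hairpin and do not separate the arms. The hairpin is shown with the 5p arm in capitals.
Mir375: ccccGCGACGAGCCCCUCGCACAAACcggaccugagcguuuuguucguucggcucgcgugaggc

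Mir192, a gut and kidney miRNA, was the second member by level but stood far below Mir375. It had 244 and 504 reads, or 81.5 CPM in replicate 1 and 79.0 CPM in replicate 2, and averaged 80.3 ± 1.76 CPM (SD, n = 2). The replicates were nearly level for this gene. Mir375 had 21.4 times as many reads as Mir192 in replicate 1 and 33.2 times in replicate 2. The gene lies at chromosome 19, 6264844 to 6264932 on the plus strand, outside other annotated genes and 2509 bases from the autophagy gene Atg2a.

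Its neighbour Mir194-2, at chromosome 19, 6264643 to 6264728, lies on the same strand with 115 bases between the hairpins. It had 136 reads in replicate 1 and 258 in replicate 2, or 45.4 and 40.5 CPM, with a mean of 42.9 ± 3.52 CPM (SD, n = 2). Mir192 had 1.79 times the reads of Mir194-2 in replicate 1 and 1.95 times in replicate 2. The order within this pair was thus the same in both pools, with the limit on Mir194-2 given above.

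The second pair, on chromosome 1, was counted at a lower level. Mir215, the seed relative of Mir192, had 43 reads in replicate 1 and 124 in replicate 2, or 14.4 and 19.4 CPM, with a mean of 16.9 ± 3.59 CPM (SD, n = 2). It lies at 185313581 to 185313692 on the plus strand, overlapping an exon of the antisense gene 2010103J01Rik and, on the opposite strand, an intron of the isoleucyl-tRNA synthetase gene Iars2. Mir194-1 lies upstream at 185313319 to 185313385, in introns of the same genes, with 195 bases between the hairpins. It had 8 reads in replicate 1 and 18 in replicate 2, or 2.67 and 2.82 CPM, with a mean of 2.75 ± 0.106 CPM (SD, n = 2). Of its 8 reads in replicate 1, 1 lay on the opposite strand, and no other member had a read there in either library. Over all genes 3.30% and 3.36% of reads lay there, a pooled share that does not describe the usual gene. It includes Mir142b, with all of its 2113 and 3952 reads on the opposite strand, while genes such as Mir25 and Mir99b had none.

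The pairs could be compared through the counted reads of their parallel members. Mir192 supplied 85.0% of the reads of Mir192 and Mir215 in replicate 1 (95% Clopper-Pearson interval 80.4 to 88.9) and 80.3% in replicate 2 (76.9 to 83.3). Mir194-2 supplied 94.4% of the counted reads of both Mir194 genes in replicate 1 (89.3 to 97.6) and 93.5% in replicate 2 (89.9 to 96.1). Reads of miR-194-5p that fit both genes were set aside, and the intervals do not cover them. These values are therefore not shares of all that the Mir194 genes make. The intervals of the replicates overlapped for both comparisons. As sums of counted reads, the chromosome 19 pair had 380 and 762 reads and the chromosome 1 pair 51 and 142 reads. This was a ratio of 7.45 in replicate 1 and 5.37 in replicate 2. The reads set aside could belong to either pair, so the ratio between the pairs is uncertain. All 4 genes together stood at 144 CPM in replicate 1 and 142 CPM in replicate 2, again without those reads.

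**Figure D1:**
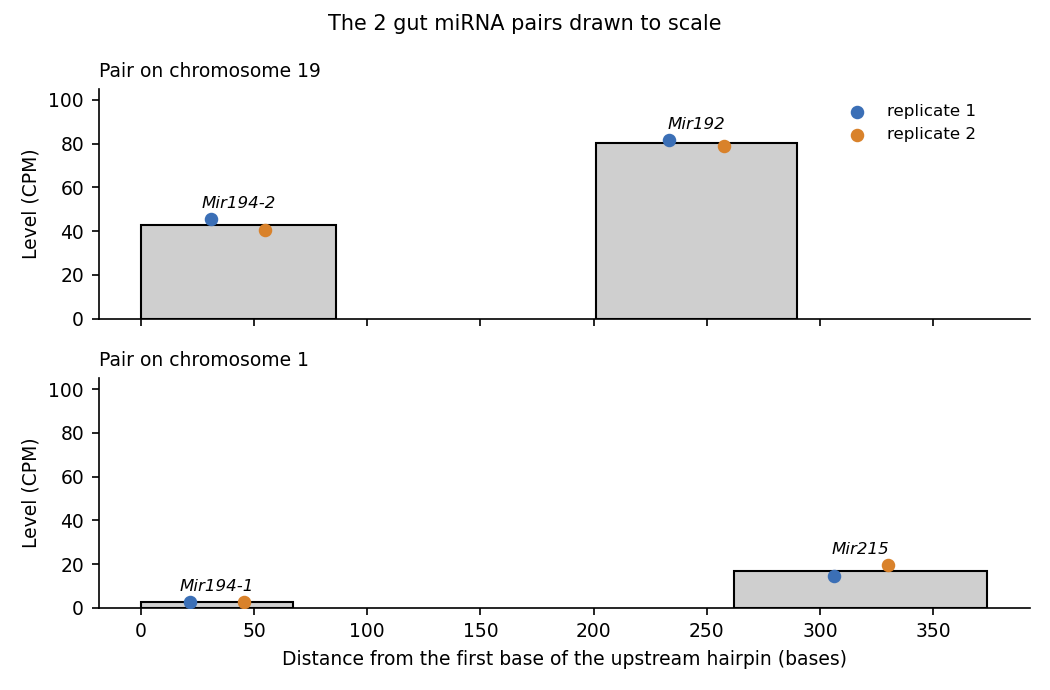
Maps to scale of the pair on chromosome 19 (top) and the pair on chromosome 1 (bottom), with distance in bases from the first base of the upstream hairpin on the x axis and level in CPM on the y axis. Bars span each hairpin and reach the mean of 2 replicates, and points are the replicates. Mir192 at 80.3 CPM and Mir194-2 at 42.9 CPM stand above Mir215 at 16.9 CPM and Mir194-1 at 2.75 CPM in both replicates. Levels of both Mir194 genes lack the reads that fit them both.

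Mir122, the liver miRNA, was detected at a low level that differed between the pools more than that of any other detected member. It had 91 reads in replicate 1 and 447 in replicate 2, or 30.4 and 70.1 CPM, with a mean of 50.2 ± 28.1 CPM (SD, n = 2). The gene overlaps an exon of the long noncoding gene AC157910.3, and all its reads lay on its own strand. In replicate 1 it was below both Mir192 and Mir194-2. In replicate 2 it was above Mir194-2 and close to Mir192.

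By mean counted level the order was Mir375, Mir192, Mir122, Mir194-2, Mir215 and Mir194-1. Both Mir194 genes lack the reads that fit them both, so their places in this order are uncertain. Mir375, Mir192, Mir215 and Mir194-1 held the same place in both replicates. Mir122 and Mir194-2 were in opposite order in the replicates, so their mean levels did not differ beyond their spread. Mir122 made up 40.1% of the counted reads of these 2 genes in replicate 1 (95% Clopper-Pearson interval 33.7 to 46.8) and 63.4% in replicate 2 (59.7 to 67.0). Mir122 made up 47.0% of the reads of Mir122 and Mir192 in replicate 2 (95% Clopper-Pearson interval 43.8 to 50.2), which does not separate them, against 27.2% in replicate 1 (22.5 to 32.3). Of the 333 detected genes, 21.9% had a higher mean level than Mir375, 62.5% than Mir192, 68.8% than Mir122, 71.2% than Mir194-2 and 80.8% than Mir215.

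**Figure D2:**
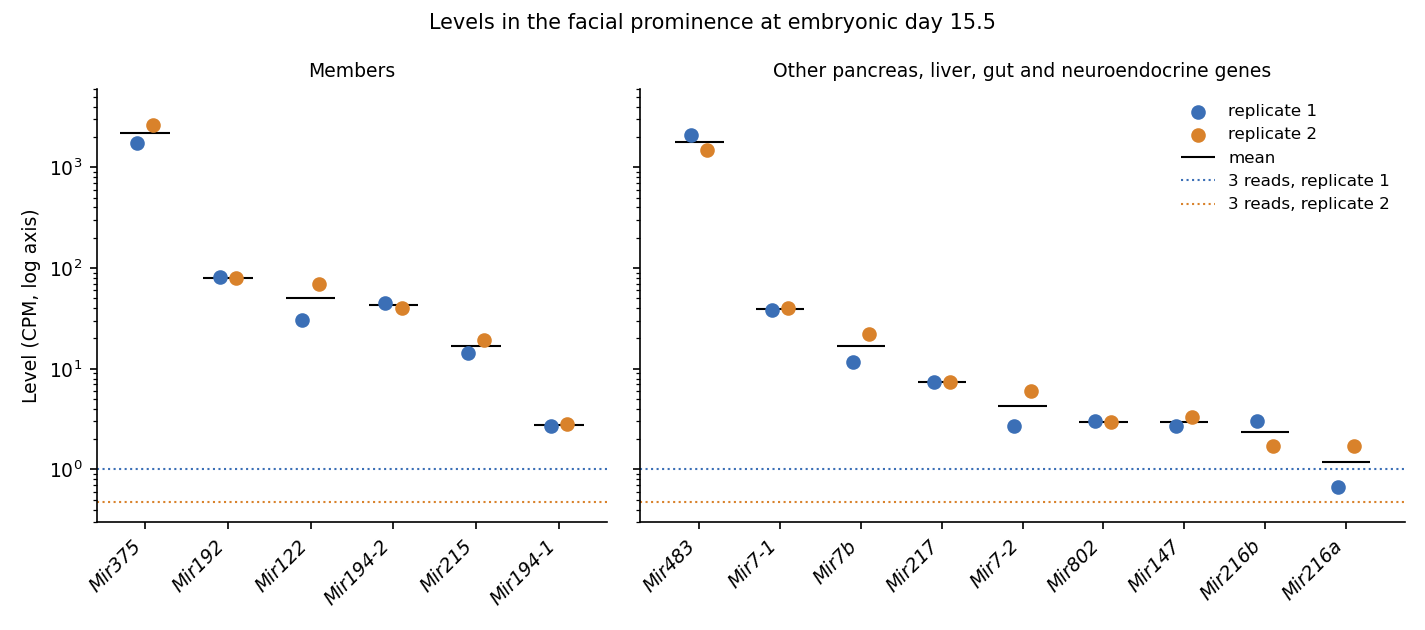
Level in CPM (log axis) of the 6 members (left) and of 9 other pancreas, liver, gut and neuroendocrine genes (right) in replicate 1 (blue) and replicate 2 (orange). Black lines are means of 2 replicates, and dotted lines are the level of 3 reads in each library. Mir375 at 2184 CPM and Mir483 at 1788 CPM stand above the rest, which lie at or below 80.3 CPM.

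The difference between the pools was measured on the log2 scale as the level in replicate 2 divided by that in replicate 1. With 1 library on each side it has no replicate check and no test, and its 95% interval (exact, conditional on the reads of both libraries) covers counting error only. Among the detected members, Mir375 and Mir122 were over 1.5-fold higher in replicate 2 and none was over 1.5-fold higher in replicate 1. Of all 333 detected genes, 8.11% were over 1.5-fold higher in replicate 2 and 3.30% in replicate 1. The median over the 5 detected members was 0.44, which is the ratio of Mir215, with an interval of −0.07 to 0.97. Over all detected genes the median was −0.01, with a middle range of −0.23 to 0.20 from the 25th to the 75th percentile. Of the 5 detected members 3 were higher in replicate 2, against 47.4% of all detected genes, while Mir192 and Mir194-2 were lower there.

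The ratio of Mir122 was 1.20 (0.88 to 1.55), or 2.31-fold, and 2.40% of detected genes had a larger ratio in either direction. Of the other genes on the hepatocyte list, Mir192 had −0.04 (−0.27 to 0.18) and Mir194-2 −0.17 (−0.47 to 0.14), intervals that lie below that of Mir122. Mir194-1, at 0.08 (−1.19 to 1.49), and Mir802, a liver and islet miRNA with 9 and 19 reads and a ratio of −0.01 (−1.23 to 1.31), had intervals that include the ratio of Mir122, so a difference of that size cannot be told from none for them. The 5 hepatocyte genes, 3 of them detected and none at the floor, had a summed level of 163 CPM (replicate 1) and 195 CPM (replicate 2). Without Mir122 itself the other 4 summed to 133 and 125 CPM. Of these 4, Mir192, Mir194-1 and Mir194-2 are gut genes as well, so the sum is not specific to hepatocytes. Both sums lack the reads that fit both Mir194 genes. The erythroid genes, which mark blood, went both ways, with −0.86 (−1.10 to −0.61) for Mir144 and 0.59 (0.41 to 0.77) for Mir451a, and their part in the level of Mir122 was not tested.

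The ratio of Mir375 was 0.59 (0.55 to 0.64), or 1.51-fold, just past the fold used. With total-count scaling it was 1.49-fold and fell short of it. In either direction 10.2% of detected genes had a larger ratio. The 7 epithelial genes ran from −0.45 to 0.30 with a median of 0.11. Of these, 4 were higher in replicate 2, led by Mir429 (0.30) and Mir200b (0.26), and 3 were higher in replicate 1, led by Mir205 (−0.45) and Mir203 (−0.42). Their summed level of 151799 CPM (replicate 1) and 128693 CPM (replicate 2) was carried by Mir203, at 90474 and 67536 CPM. The 3 genes of sensory cells, Mir183, Mir96 and Mir182, ran from 0.37 to 0.63 and summed to 14635 and 20419 CPM. Their part in the difference of Mir375 was not tested.

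The remaining detected member, Mir215, had a ratio of 0.44 (−0.07 to 0.97). Its interval, on 43 and 124 reads, includes 0 and also the 0.59 of Mir375. Mir194-1, with a ratio of 0.08 (−1.19 to 1.49), had too few counted reads for a comparison.

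**Figure D3:**
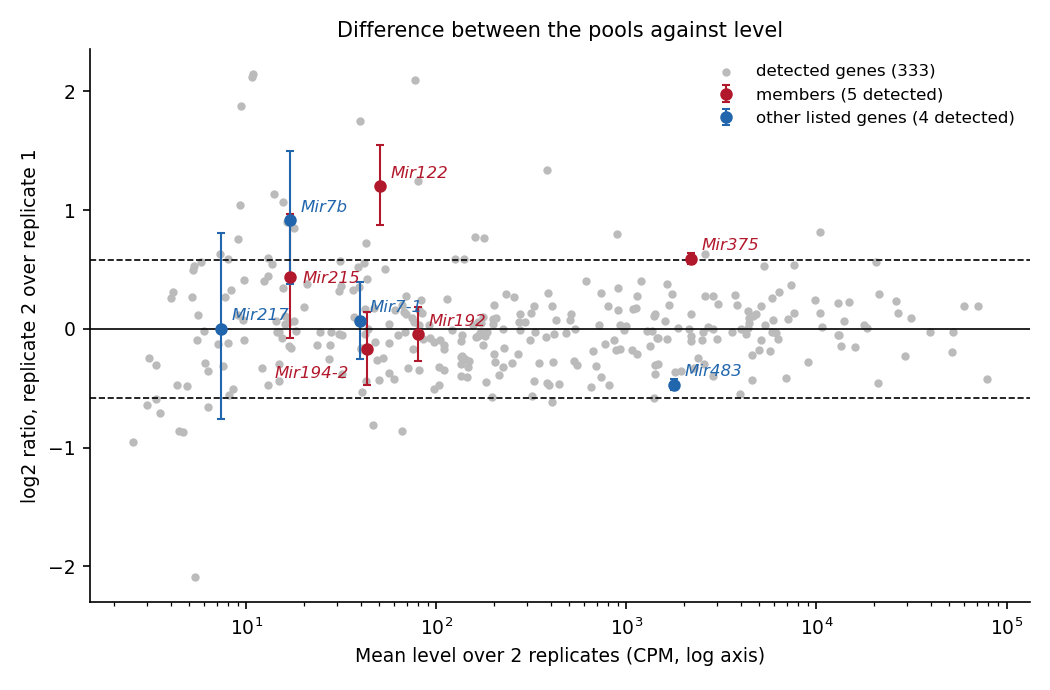
Log2 ratio of replicate 2 over replicate 1 (y axis) against mean level in CPM (x axis, log) for 333 detected genes (grey), the 5 detected members (red) and 4 other listed genes (blue). Bars are 95% exact intervals for counting error and dashed lines mark 1.5-fold. Mir122 at 1.20 and Mir375 at 0.59 lie above the upper line, and Mir192 and Mir194-2 lie near 0.

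Other genes of these organs were taken from a list of 10, of which 9 were counted and 4 detected. As among the members, 1 gene was abundant and the others were low. Of the detected genes 1 was over 1.5-fold higher in replicate 2 and none in replicate 1, and their median log2 ratio was 0.04. Mir483, in an intron of the growth factor gene Igf2, had 6215 and 9563 reads, or 2077 and 1500 CPM, and was higher in replicate 1 (−0.47, −0.52 to −0.42). It supplied 96.8% of the summed level of the list in replicate 1 and 94.6% in replicate 2.

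The Mir7 genes, which are islet and neuroendocrine miRNAs like Mir375, had fewer counted reads than it. Mir7-1, in an intron of Hnrnpk, had 115 and 257 reads, or 38.4 and 40.3 CPM, and a ratio of 0.07 (−0.25 to 0.40). Mir7b had 35 and 141 reads, or 11.7 and 22.1 CPM, and was higher in replicate 2 by 0.92 (0.38 to 1.497). Mir7-2 had 8 and 38 reads. Mir7-1 and Mir7-2 share a stretch of 20 bases, and since reads that fit both were set aside, the levels of both genes are uncertain. Mir375 made up 97.8% of its counted reads and those of Mir7-1 in replicate 1 and 98.5% in replicate 2, which holds only for reads mapped to 1 place.

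Genes of the exocrine pancreas were near the limit of the depth. Mir217 had 22 and 47 reads, or 7.35 and 7.37 CPM. Mir216a had 2 and 11 reads and Mir216b 9 and 11, and neither reached 10 reads in both libraries. Of the gut, Mir147 had 8 and 21 reads, or 2.67 and 3.29 CPM.

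The detected genes closest to each member were ranked by Euclidean distance in log2 CPM over the 2 libraries, which measures likeness in level and ratio only. Mir375 was closest to Mir872 (distance 0.33), Mir96 (0.35) and Mir361 (0.42). Of these, Mir96 of the sensory cluster also had a similar ratio, 0.63, with 2033 CPM in replicate 1 and 3157 CPM in replicate 2. Mir375 made up 46.1% of the reads of Mir375 and Mir96 in replicate 1 (95% Clopper-Pearson interval 45.2 to 47.1) and 45.4% in replicate 2 (44.9 to 45.9), and these intervals overlapped. Mir96 was picked here for its likeness in these same libraries, so the overlap follows in part from that choice and is no separate evidence. Mir122 lay farther from its closest genes, Mir452 (0.41), Mir184 (0.52) and Mir193b (0.56). Mir192 was closest to Mir412 (0.06), Mir208b (0.12) and Mir5099 (0.13), Mir194-2 to Mir363 (0.10), Mir383 (0.13) and Mir666 (0.14), and Mir215 to Mir199a-1 (0.17), Mir325 (0.25) and Mir1955 (0.26). With 2 libraries these distances describe the samples and carry no test.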

How the data were processed

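MicroRNA libraries of 2 biological replicates of facial prominence were analysed as 1 group. The deposited files give raw counts of reads for each miRNA gene, made by the authors on mm10 with the GENCODE M4 annotation per the file headers of the deposited file list, for either strand, the strand of the gene and the opposite strand. Which aligner and counter made them is not given in the sources used here. Counts on either strand were used, and the lines of reads given to no gene, 49.0% and 54.5% of reads in replicates 1 and 2, stayed out of library sizes.

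Members were found by symbol in GENCODE M21, a newer release on that build, which named 1894 of 1973 counted genes. Counts were scaled with TMM in edgeR 4.0.16 (R 4.3.3) and expressed as CPM. Shares carry exact 95% Clopper-Pearson intervals, and ratios an exact interval conditional on the reads of both libraries (scipy 1.17.1). No p-value was computed, since a comparison of single libraries has no residual degrees of freedom. A difference was called past 1.5-fold, among genes with at least 10 reads in each library. Positions are 1-based. The members and lists were chosen with earlier results of these data known. Named genes were the members, the 10 listed organ genes and the 3 nearest detected genes of each detected member, plus marker genes beside a result. Alternatives were total counts, DESeq2 1.42.0 size factors, the gene strand, the most abundant genes left out, other read minimums, summed Mir194 copies and each replicate alone.

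Of the other marker lists, the leukocyte list had 1 of 2 genes counted under its symbol (Mir223, 510 ± 31.5 CPM). Mir142 was not found by symbol. Mir142b, which was not listed, had 2113 reads in replicate 1 and 3952 in replicate 2, all on the opposite strand. The islet and neuroendocrine list, which includes Mir375, summed to 2244 ± 635 CPM (60.6 ± 11.0 without it). The exocrine pancreas list summed to 10.9 ± 0.146 CPM. The intestinal list, which is the gut members plus Mir147, summed to 146 ± 1.15 CPM, without the reads that fit both Mir194 genes. These values are means and SD, n = 2. Figures were drawn with matplotlib 3.10.9 in Python 3.11.15.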

Additional observations from a re-analysis of the deposited data

How the results depend on the processing

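No recomputed value reversed. Each replicate alone gives the values printed per replicate, and with 2 replicates these lie within 1 SD of the mean by construction. Total-count scaling gave Mir375 a log2 ratio of 0.58, short of 1.5-fold, and so left 1 member past it. Leaving the most abundant gene of either library out of the totals raised all levels, with Mir192 at 94.4 CPM, Mir194-2 at 50.5 CPM and Mir194-1 at 3.23 CPM, and the gene strand gave 83.0 CPM for Mir192. A minimum of 100 reads in each library left 3 members detected and 1 past 1.5-fold, since Mir122 has 91 reads in replicate 1, and 10 and 3 genes past 1.5-fold toward replicates 2 and 1, against 27 and 11. A minimum of 1 read gave 93 and 92. The pairs of members and nearest genes were the same 15 under each scaling and on the gene strand. With 1 library on each side of the ratio, no replicate could be left out of it. No paired analysis was possible because there is 1 group. Low read counts limit Mir194-1 and Mir215 most, and Mir194-1 also lacks the reads that fit both Mir194 genes.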

Other observations

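Mir122 was among the genes that differed most between the pools. The 8 detected genes with a larger ratio in either direction, named after their values were seen, were Mir6236 (142 against 717 reads, log2 ratio 1.24), Mir10a (644 against 3474, 1.34), Mir196b (54 against 387, 1.75), Gm26117 (12 against 94, 1.88), Gm23935 (87 against 795, 2.10), Mir6538 (12 against 111, 2.12), Mir6240 (12 against 113, 2.14) and, toward replicate 1, Mir511 (26 against 13, −2.09). The lists of liver, gut, pancreas and blood genes used here hold none of these 8. Those lists are short, so this does not show which cells the 8 genes come from.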
